A study of Homo sapiens with 10 samples.

Results

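The regions described here are the ChIP-seq peaks that lie outside chromosomes 1 to 22, X and Y of the hg38 build. They were chosen by sequence name alone, and they number 21766 of 643692 peaks listed over 6 libraries. By name they fall into alternate haplotypes (17643 peaks on 260 sequences), random sequences assigned to a chromosome without a position (2232 peaks on 42), unplaced sequences with no known chromosome, named chrUn (1880 peaks on 75), and the mitochondrial genome (11 peaks). A peak is an interval called where sequenced DNA fragments pile up after immunoprecipitation of chromatin, and its summit is the base with the highest pile.

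The cells were 22RV1, a human prostate cancer line, and the study concerns RB, the tumour suppressor encoded by RB1. A first pair set cells given control siRNA beside cells given siRNA against RB1. A second pair set an empty vector, EV(245-255), beside HA-RB(245-255), a plasmid for tagged RB residues 245 to 255. The genotype label of the HA-RB(245-255) library calls it a control, while its title names the insert; the title was followed. In the last pair the empty vector EV(RBN) stood beside HA-RBN, a plasmid for the insert that the labels call RBN. Each group had 1 library and no replicates, so no difference between conditions was tested, and each is a difference between 2 libraries. The labels used here name no antibody. All 6 libraries come from cells that were transfected or infected, and the pairs differ in reagent, so values that split by pair cannot be told apart from the experiment they belong to.

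Alternate haplotypes are second versions of stretches that also exist on a chromosome, such as the major histocompatibility complex (MHC) on chromosome 6 and the leukocyte receptor cluster (LRC) with its killer cell receptor genes on chromosome 19. Unplaced and random sequences are short, often repetitive pieces, and a few carry the ribosomal RNA genes, which exist in many copies in human cells and are transcribed by RNA polymerase I. Mitochondrial DNA lies outside the nucleus, is present in many copies per cell and is not packed into histones, so fragments from it are a common companion of nuclear chromatin preparations.

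Off the chromosomes, 806 of 21666 peaks were listed with control siRNA, 3.72% (exact 95% interval 3.47 to 3.98), and 1250 of 35285 with RB1 siRNA, 3.54% (3.35 to 3.74). EV(245-255) had 3031 of 77488, 3.91% (3.78 to 4.05), and HA-RB(245-255) had 3337 of 95816, 3.48% (3.37 to 3.60). The lowest share was that of EV(RBN), with 4227 of 161012, 2.63% (2.55 to 2.71), against 9115 of 252425 in HA-RBN, 3.61% (3.54 to 3.68). Among peaks with −log10 q of at least 5 the order within the RBN pair turned, to 7.93% in EV(RBN) and 6.61% in HA-RBN. These intervals, like all those below, cover counting error only. The sequences concerned make up 3.69% of the span of all listed sequences, where the span of a sequence is its largest listed coordinate.

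**Figure D1:**
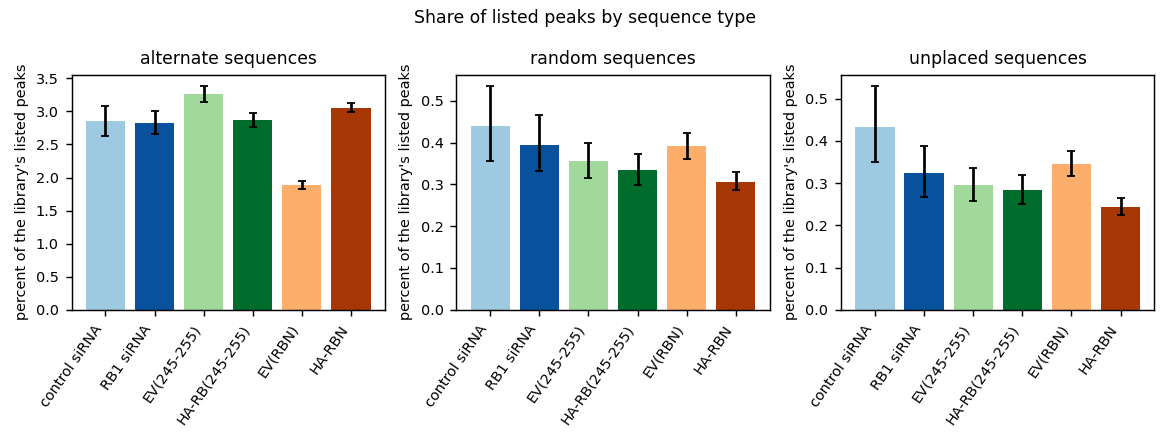
Percent of each library's listed peaks (vertical axis) on alternate, random and unplaced sequences, 1 bar per library, with exact 95% intervals for counting error. EV(RBN) has the lowest bar for alternates, 1.89%, beside 2.83 to 3.26% in the other 5 libraries, while its bars for random and unplaced sequences, 0.391% and 0.345%, lie within the range of the other libraries.

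Most of that difference sat on the alternates. They took 1.89% of the EV(RBN) list (1.82 to 1.95) and 3.06% of the HA-RBN list (2.99 to 3.13), and between 2.83 and 3.26% of the other 4 lists. Random sequences took 0.307 to 0.438% and unplaced ones 0.244 to 0.434%. A peak was listed in all 6 libraries on 129 alternate, 30 random and 24 unplaced sequences.

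Widths split the lists by pair. The 4 lists of the siRNA and 245-255 pairs, for which the labels hold immunoglobulin (IgG) samples, had very wide intervals, with a median of 72548 bp on alternates for control siRNA and 18297 bp for HA-RB(245-255), whereas EV(RBN) and HA-RBN had medians of 453 and 533 bp. Alternates resembled the chromosomes of their own library in this respect, at 83581 bp for control siRNA and 522 bp for HA-RBN. Unplaced sequences did not. Their median widths were 12110 and 10558 bp in the siRNA pair (control first) and 6589 and 3030 bp in the 245-255 pair, which is 0.145 to 0.295 times that of the chromosomes. In the RBN pair their median was instead 1.22 times that of the chromosomes in both libraries. Short sequences limit how wide an interval can be, and the part of that limit in these widths was not tested.

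The number of fragments stacked at a summit was recovered from the deposited fold enrichment and p-value of each peak. A pile of at least 20 fragments was found on random and unplaced sequences far more often than elsewhere in the same list. In EV(RBN) it was found for 14.6% (12.0 to 17.6) of random and 14.0% (11.2 to 17.2) of unplaced peaks, beside 0.797% (0.753 to 0.842) of chromosome peaks and 0.659% (0.403 to 1.02) of alternate peaks. In HA-RBN the shares were 17.4% and 19.5%, beside 2.47% on the chromosomes and 3.04% on alternates. In EV(245-255) they were 41.1% and 30.6%, beside 5.56% and 6.05%, and in HA-RB(245-255) 28.8% and 24.6%, beside 4.41% and 4.52%. The siRNA pair had smaller gaps, with 30.5% and 38.3% beside 21.4% on the chromosomes for control siRNA and 28.1% and 27.2% beside 17.3% for RB1 siRNA. Random and unplaced sequences thus stood above the chromosomes in all 6 libraries, although the interval of random sequences with control siRNA (21.5 to 40.8) met that of the chromosomes (20.8 to 21.9). Alternates stayed within 0.827 to 1.24 times the chromosome share.

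**Figure D2:**
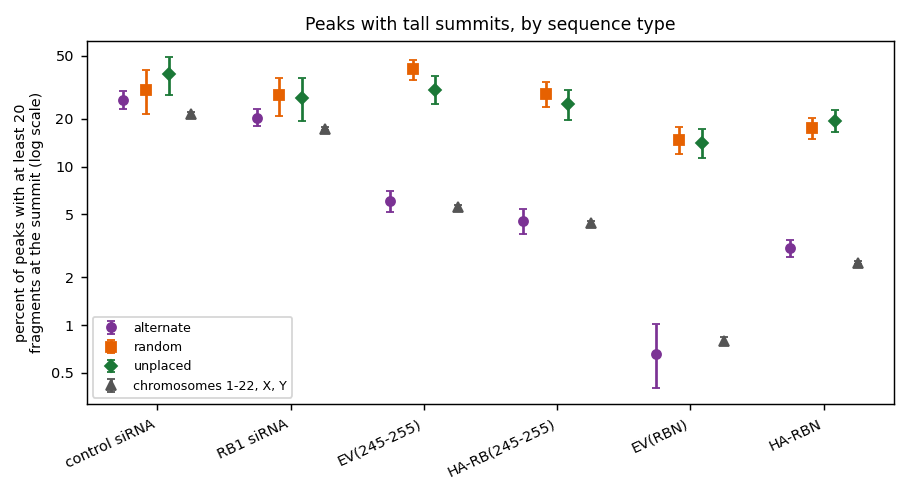
Percent of peaks with at least 20 fragments at the summit (vertical axis, log scale) in each library, by sequence type, with exact 95% intervals for counting error. Random and unplaced sequences lie above the chromosomes in every library, by ratio most for random sequences in EV(RBN), 14.6% against 0.797%, and least for random sequences with control siRNA, 30.5% against 21.4%.

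The local background, the level against which the authors' caller judged each summit, was also higher there in most libraries. The RBN lists hold unscaled fragments and have no IgG sample. Their local background therefore appears to come from the same fragments as the summits, and is not separate evidence. The median local background was 2.25 times the library-wide background on unplaced and 1.99 times on random sequences in EV(RBN), against 1.19 on the chromosomes. Values in HA-RBN were 1.97 and 1.76 against 1.00, in EV(245-255) 3.30 and 4.40 against 1.00, and in HA-RB(245-255) 3.17 and 3.17 against 1.58. With RB1 siRNA they were 3.52 and 1.00 against 1.00, and with control siRNA all 3 were 1.00. By median, only unplaced sequences with RB1 siRNA therefore stood higher in the siRNA pair. The upper quartile with control siRNA was 6.05 on both random and unplaced sequences and 1.00 on the chromosomes. With RB1 siRNA it was 3.52 on all 3. In the lists of pairs with IgG samples, low local backgrounds took few distinct values, such as 1.00 and 6.05 with control siRNA or 1.00 and 3.52 with RB1 siRNA. A difference between such values can therefore be a single step and not a graded level. Among the 100 tallest summits of a list, 44 in EV(RBN), 36 in HA-RBN, 24 in EV(245-255), 25 in HA-RB(245-255) and 13 in each siRNA library lay off the chromosomes. The median fold enrichment differed less, at 2.76 on unplaced sequences against 2.55 on the chromosomes in EV(RBN) and 2.96 against 2.45 in HA-RBN. How far copy number or shared repeats raise both pile and background was not tested.

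Of the summits off the chromosomes that were found within 200 bp of 1 place in all 6 libraries, the 6 with the highest lowest enrichment sat on 2 sequences that carry ribosomal RNA genes, chrUn_GL000220v1 and chr22_KI270733v1_random. The RefSeq table places RNA45SN5, a gene for the precursor of the 18S, 5.8S and 28S ribosomal RNAs, at bases 105424 to 118780 of a sequence that it does not name. From general knowledge of the assembly this was taken to be chrUn_GL000220v1. That sequence held 20 and 19 peaks in the siRNA pair (control first), 44 and 41 in the 245-255 pair and 37 and 38 in the RBN pair. A pile of at least 20 fragments was present at 20, 19, 42, 41, 23 and 26 of them.

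Within RNA45SN5 the tallest summit stood 932 times above the library-wide background with control siRNA (385 fragments) and 635 times with RB1 siRNA (342 fragments). The 245-255 pair reached 821 times in the vector and 624 times with the insert, and the RBN pair 537 and 494 times. The log2 ratio, condition over control, was −0.55 (−0.77 to −0.34) in the siRNA pair, −0.40 (−0.73 to −0.06) in the 245-255 pair and −0.12 (−0.38 to 0.14) in the RBN pair. The median log2 ratio of all summits shared by a pair was itself −0.12, −0.48 and 0.55, in that order. Relative to it the gene's tallest summit stood at −0.44 (−0.65 to −0.22) with RB1 siRNA, at 0.08 (−0.25 to 0.41) with HA-RB(245-255), and at −0.67 (−0.93 to −0.41) with HA-RBN, so the direction in the 245-255 pair depended on that scale and its interval then included 0. A summit within 200 bp of the HA-RBN one, at base 117808 inside RNA28SN5 (bases 113348 to 118417), was present in all 6 libraries. Its partner on chr22_KI270733v1_random, at base 134718, had enrichments of 903, 778, 784, 640, 516 and 497 in the same library order. The 2 sequences carry copies of 1 repeat, so their values are not independent.

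Summits inside and beyond the RNA45SN5 gene were taller in the RBN pair than those before it. Upstream of the gene the siRNA and 245-255 pairs listed 1 to 3 peaks per library, EV(RBN) 16 and HA-RBN 14, with median enrichments in the RBN pair of 12.3 and 15.8. Inside the gene the medians were 240 and 338, and beyond it 194 and 325. In HA-RBN, for example, summits with 166, 214 and 226 fragments lay 0.973, 5.163 and 6.737 kb from the gene's start. Others with 184, 214 and 216 fragments lay at 44.904, 49.158 and 50.709 kb, at similar spacing. Whether the stretch beyond holds a further copy of the gene was not tested, so its medians may not describe flanking sequence alone. Local background, which in the RBN pair appears to come from the same fragments, was raised inside the gene too. In HA-RBN its median was 2.65 times the library-wide background upstream and 159 times within the gene, so the highest fold enrichment within the gene, 2.84, was lower than the 15.2 reached upstream. The IgG-based background was raised too, with medians within the gene of 60.5 and 93.4 times the library-wide level in the siRNA pair and 24.2 and 9.502 times in the 245-255 pair. Pulled-down and control chromatin were therefore both high over this gene. A single strong summit stood far upstream, at base 7428 in HA-RBN, with 333, 375, 171, 184, 120 and 282 fragments in the 6 libraries in that order. Its IgG-based background was at the library-wide level in all 4 lists that have one.

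**Figure D3:**
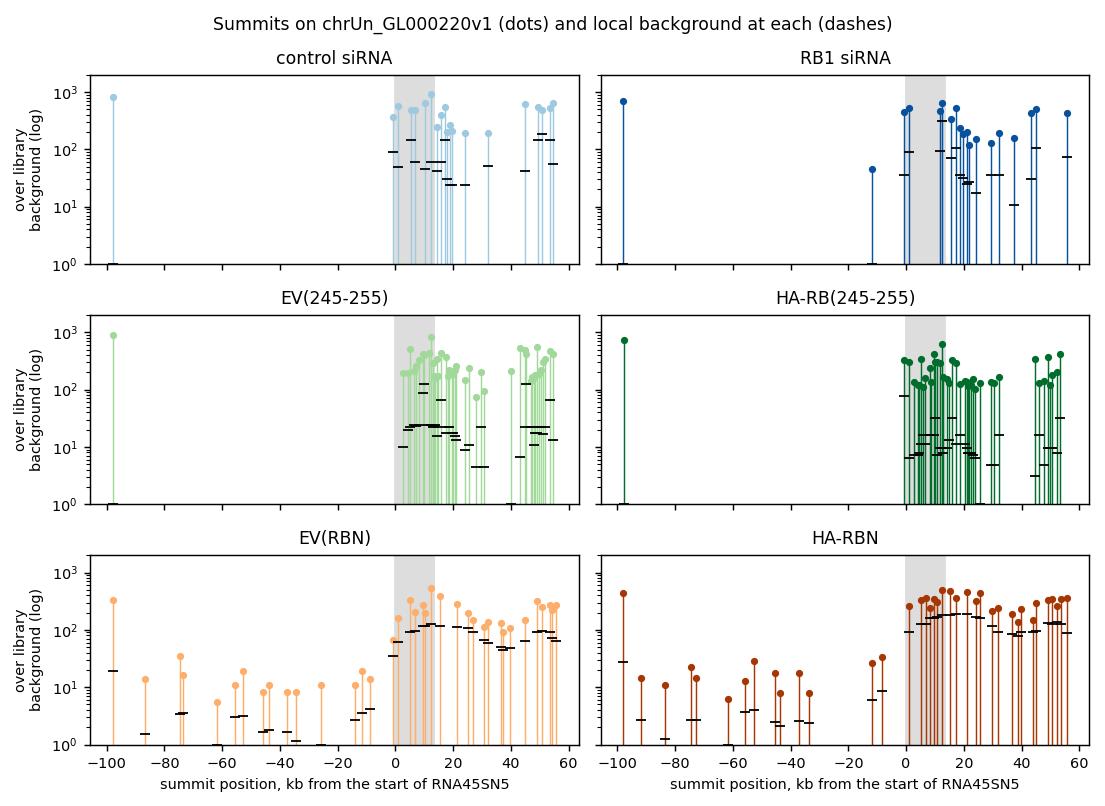
Peaks of chrUn_GL000220v1 in each library, placed by distance from the start of RNA45SN5 (horizontal axis, kb; the gene is shaded), with enrichment over the library-wide background as dots and the local background on the same log scale as dashes. In the RBN pair dots and dashes are higher inside the gene, with median enrichments of 240 and 338, than before it, with 12.3 and 15.8. The tall dot far to the left in each panel is the summit with 333, 375, 171, 184, 120 and 282 fragments.

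Other sequences split the libraries by pair. On chrUn_GL000216v2 the tallest summit reached 48.4 times the library-wide background with control siRNA and 9.28 times with RB1 siRNA, but 2512 and 1953 times in the 245-255 pair and 1749 and 1760 times in the RBN pair (vector first). On chr3_KI270784v1_alt the values were 24.2 and 50.1 in the siRNA pair and 2170, 2005, 780 and 1274 in the other libraries. The tallest listed summits of both sequences were low in the siRNA pair and high with all 4 plasmids, empty vectors included. Only listed peaks enter these values, and a tall pile on a high IgG background can be missing from a list. On chrUn_GL000216v2 an EV(245-255) summit of 329 fragments stood on a local background of 122.9 times the library-wide level. Whether fragments were few at these places with siRNA was therefore not shown. On chr14_GL000225v1_random the gap was smaller, with 1218 and 650 in the siRNA pair, 3711 and 2897 in the 245-255 pair, and 1893 and 1759 in the RBN pair. chr17_GL000205v2_random showed no such split, with 1871, 1255, 1488, 1124, 1143 and 1702. The values of chrUn_GL000195v1 were 1639 and 1173 in the siRNA pair, 1056 and 948 in the 245-255 pair, and 644 and 900.5 in the RBN pair.

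Among sequences with a peak in all 6 lists, the highest value of the lowest fold enrichment belonged to chrUn_GL000220v1 (6.48), followed by chr17_GL000205v2_random (5.13), chr22_KI270733v1_random (5.08), chrUn_KI270744v1 (3.63) and chr16_KI270728v1_random (3.51). Next came chr11_KI270832v1_alt (2.86), chr17_KI270861v1_alt (2.74), chr6_GL000256v2_alt (2.61), chr8_KI270821v1_alt (2.57) and chr14_GL000194v1_random (2.54). Fold enrichment is not on 1 scale across the lists, since a value of 5 needs 244 fragments with control siRNA and 6 in EV(RBN). Summits at 1 place in all 6 libraries numbered 57 off the chromosomes, 0.625% (0.474 to 0.809) of HA-RBN peaks there. On the chromosomes they made up 0.578% (0.548 to 0.609), so recurrence was not distinguishable between them at these counts.

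Of the 3 peaks of highest fold enrichment per type in the RBN pair, those on random and unplaced sequences lay on the same sequences in both libraries. Among alternates chr3_KI270784v1_alt was one of the 3 in EV(RBN) only, with 286 fragments, and chr21_KI270872v1_alt in HA-RBN only, with 136. chr12_GL877875v1_alt had a peak at bases 1 to 584 with 244 fragments in EV(RBN) and 824 in HA-RBN, and chr17_GL383563v3_alt had one with 63 and 186. chr17_KI270729v1_random had a peak from base 27476 with 257 and 265 fragments and a second with 273 and 266. chr22_KI270734v1_random had 111 and 244. The short unplaced sequences chrUn_KI270303v1, chrUn_KI270310v1 and chrUn_KI270337v1 had 120 and 129, 137 and 159, and 245 and 164. The library-wide background was 1.73 times higher in HA-RBN (0.634 fragments per base) than in EV(RBN) (0.367), so the fragment numbers of chr17_KI270729v1_random, 257 and 265, correspond to enrichments of 701 and 418.

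The mitochondrial genome was listed only in the RBN pair, for which the labels hold no IgG sample. In EV(RBN) 5 peaks covered 13360 bases and in HA-RBN 6 peaks covered 12227. They shared 11410 bases, which is 85.4% of the EV(RBN) and 93.3% of the HA-RBN cover. Piles held 3380 to 5431 fragments in EV(RBN) and 5036 to 6596 in HA-RBN, above the tallest chromosome piles of 1642 and 3280. Local background was deep as well, from 1908 to 3149.7 and from 2111 to 3691 fragments, and fold enrichment stayed between 1.07 and 3.12. In EV(RBN) the summits fell in RNR1, the 12S ribosomal RNA gene, in ND2 and in the respiratory chain genes COX1 and ATP6. In HA-RBN the first and tallest summit, at base 535 with 6596 fragments, fell before the first gene, TRNF, which starts at base 577. The next 4 fell in ND1, COX1, COX2 and ND4. The last peak of each library had its summit at the same base, 16156, past the last of the 37 mitochondrial genes, which ends at base 16023. The stretches before the first and past the last gene belong to the control region, where replication and transcription start. At base 16156 EV(RBN) had 5431 fragments and HA-RBN 6212. Relative to each library's background that was 14816 and 9797, a log2 ratio of −1.15 (−1.20 to −1.09) after subtracting the median of all shared summits. HA-RBN thus held more mitochondrial fragments in number and fewer for its depth at this base.

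Alternates were the type whose peaks grew most in the RBN pair. Their peaks went from 3037 to 7720, 2.54 times, while chromosome peaks went from 156785 to 243310, 1.55 times, random ones from 629 to 774 and unplaced ones from 556 to 615. The alternates' growth was 1.64 (1.57 to 1.71) times that of the chromosomes. In the siRNA pair it was 0.9904 (0.894 to 1.097) times, and in the 245-255 pair 0.875 (0.828 to 0.924) times. Set against its own chromosome, the set of alternates grew more for 23 of 23 chromosomes in the RBN pair, for 13 of 23 in the siRNA pair and for 6 of 23 in the 245-255 pair. Of 241 alternate sequences with a peak in the RBN pair, 226 had more peaks in HA-RBN, 7 the same number and 8 fewer. Measured against the chromosomes' 1.55 times, 195 of the 241 had more than that multiple of their EV(RBN) number. Of the 92 with at least 10 peaks in EV(RBN), 64 did. The same count, against the chromosome ratio of each pair, was 120 of 219 in the siRNA pair and 104 of 257 in the 245-255 pair.

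**Figure D4:**
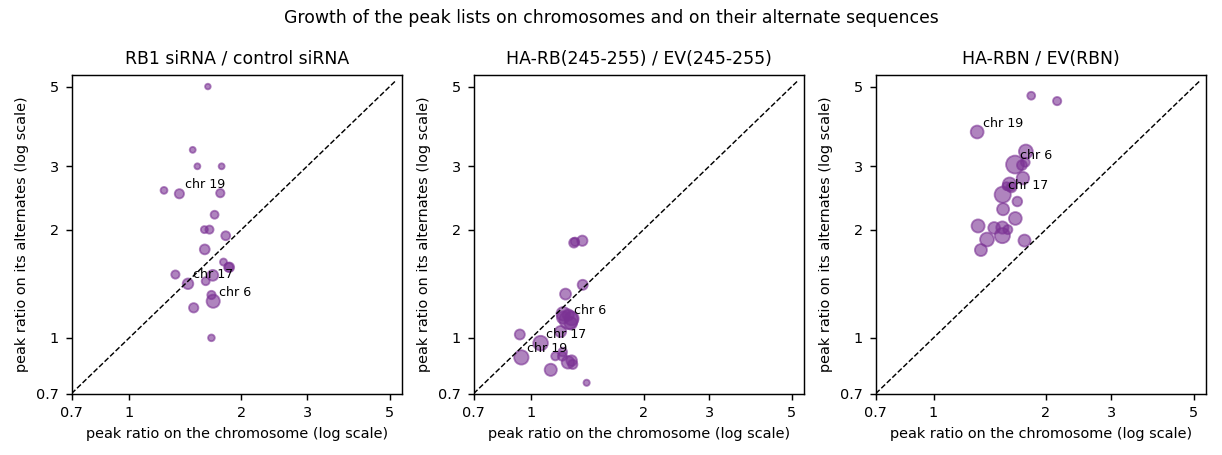
Ratio of peak numbers, condition over control, on each chromosome (horizontal axis, log scale) and on its alternate sequences (vertical axis, log scale), 1 dot per chromosome with dot area growing with the alternates' peak number in the control. The dashed line marks equal ratios. In the RBN pair 23 of 23 dots lie above it, beside 13 of 23 and 6 of 23 in the other pairs.

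A low level in the EV(RBN) library accompanied this growth. Per megabase of alternate sequence EV(RBN) listed 28.3 peaks and HA-RBN 72.0, while the chromosomes held 50.8 and 78.8. The alternates' density was 0.558 times that of the chromosomes in EV(RBN) and 0.844 to 0.977 times in the other 5 libraries. Of these, HA-RBN had 0.914. Summits of at least 20 fragments rose from 20 to 235 on alternates, 11.8 times, and from 1249 to 6015 on chromosomes, 4.82 times.

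The alternates of chromosome 6 gave the largest group. The 7 MHC haplotypes held 512 peaks in EV(RBN) and 1600 in HA-RBN, 3.13 (2.83 to 3.46) times as many, while all of chromosome 6 grew 1.66 times. The MHC on chromosome 6 itself, taken from HLA-F to HLA-DPB1 (bases 29723434 to 33089696), held 80 and 258, 3.23 (2.50 to 4.20) times. The haplotypes and this part of the region they duplicate therefore grew alike within their intervals, and both grew more than the whole chromosome. The 7 haplotypes are versions of the same region, so their peaks are not independent counts and the intervals are likely too narrow. How reads that match several of these copies were placed is not known. On chromosome 17 the haplotype chr17_GL000258v2_alt, which carries the alternative form of the MAPT region, went from 22 to 90 peaks, 4.09 (2.54 to 6.85) times. The stretch from CRHR1 to NSF on chromosome 17 (bases 45784320 to 46757464) went from 27 to 101, 3.74 (2.43 to 5.95) times, beside 1.53 for the chromosome. On chromosome 19 the alternates went from 137 to 512, 3.74 (3.09 to 4.55) times. The LRC stretch from LILRB3 to FCAR (bases 54216278 to 54891420) went from 5 to 46, beside 1.31 for the chromosome. Chromosome 19 alternates also grew more than their chromosome in the siRNA pair, from 31 to 78, 2.52 (1.64 to 3.95) times, beside 1.36. In the 245-255 pair they went from 221 to 195. In these 3 regions, which were chosen after the growth of the alternates had been seen, the larger growth of the RBN pair was found on a stretch of the chromosome itself as well. The sets compared differ in extent. The 7 MHC haplotypes together span 33.1 Mb beside a stretch of 3.37 Mb, and chr17_GL000258v2_alt spans 1.82 Mb beside 0.973 Mb. All 43 alternates of chromosome 19, not only LRC haplotypes, were counted, at 14.2 Mb beside 0.675 Mb. Other regions were not compared with their alternates.

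The LRC haplotypes shared a summit. Near 112 kb from their start, all 8 of those with names from chr19_GL949746v1_alt to chr19_GL949753v2_alt had one between bases 112203 and 112280 with control siRNA, of 60 to 69 fragments (median 63). With RB1 siRNA all 8 had it again, with 35 to 51 fragments (median 42.5), and the 2 ranges did not overlap. As enrichment the medians were 152 and 78.9. The steepest was chr19_GL949751v2_alt, with 69 and 35 fragments, at −1.24 (−1.87 to −0.64) on the log2 scale relative to all shared summits, and the least was chr19_GL949747v2_alt, with 62 and 51, at −0.55 (−1.11 to 0.01). The summit stood on 7 haplotypes in both libraries of the 245-255 pair, with medians of 22 and 17 fragments. In the RBN pair it stood on 6 and 8, with medians of 5 and 19. The 8 haplotypes are near copies and not replicates, and the position was chosen after its values were seen. It was the only kilobase in which all 8 had a summit with control siRNA.

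Across pairs, shared summits were those within 200 bp of each other with at least 10 fragments in 1 of the 2 libraries, and a summit was counted as moved when its log2 ratio of enrichment lay more than 1 from the median of all shared summits. In the siRNA pair 2.29% of 5012 shared summits were higher, 1.82% lower and 4.11% either way. Off the chromosomes 1 of 186 was higher and 1 lower. In the 245-255 pair 3.36% of 7356 were higher, 3.34% lower and 6.7% either way, and off the chromosomes 9 of 386 were higher and 10 lower. In the RBN pair 4.98% of 9394 were higher, 6.89% lower and 11.9% either way.

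In that last pair alternates stood above the median and the other types below it. Of 347 shared summits on alternates 45 were higher and 6 lower, and their median was 0.36 (0.24 to 0.40). On unplaced sequences 2 of 107 were higher and 30 lower, with a median of −0.34 (−0.60 to −0.21), and on random ones 2 of 139 were higher and 15 lower, with a median of −0.35 (−0.41 to −0.23). Chromosome summits had a median of 0.00, with 419 of 8800 higher and 595 lower. The median ratio of local background, HA-RBN over EV(RBN), each relative to its library, was 2.02 on alternates, 1.22 on unplaced, 1.20 on random sequences and 1.44 on the chromosomes. Local background in this pair appears to come from the same fragments as the summits, so its ratio is not separate evidence. Summits on neighbouring copies share sequence, so these numbers count places and not independent sites. In the siRNA pair alternates stood below the median, at −0.27 (−0.32 to −0.18) with 104 of 147 under 0, beside 0.01 on the chromosomes, while random and unplaced sequences had −0.09 and −0.13. In the 245-255 pair the medians of the 3 types lay between −0.07 and 0.03.

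**Figure D5:**
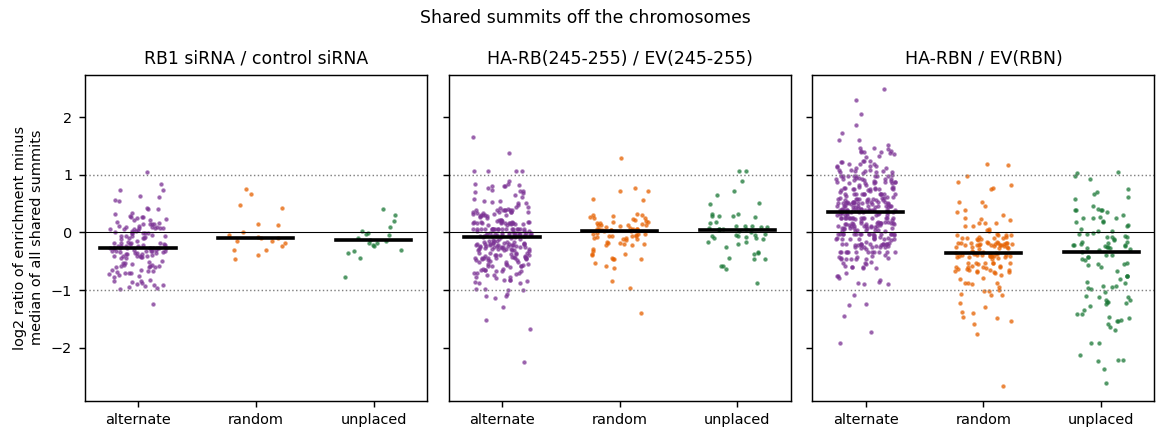
Log2 ratio of summit enrichment, condition over control, minus the median of all shared summits of the pair (vertical axis), 1 dot per shared summit, by sequence type. Bars mark medians and dotted lines mark 1 log2 unit. In the RBN pair the alternates' median is 0.36 and those of random and unplaced sequences are −0.35 and −0.34.

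The lowest summits of the RBN pair were on chr9_KI270719v1_random, with 15 fragments in EV(RBN) and 6 in HA-RBN, at −2.66 (−4.32 to −1.22), and on short unplaced sequences. chrUn_KI270544v1 had 24 and 10, at −2.60 (−3.83 to −1.49). chrUn_KI270336v1 had 88 and 43, at −2.37 (−2.94 to −1.83). chrUn_KI270467v1 had 148 and 80, at −2.23 (−2.64 to −1.83), and chrUn_KI270466v1 had 99 and 54, at −2.22 (−2.72 to −1.72). The local background of these 4 unplaced sequences, which appears to come from the same fragments, fell as well. For chrUn_KI270467v1 it went from 40.0 to 12.4 times the library-wide level.

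The highest were all on alternates. chr14_KI270846v1_alt had 12 fragments in EV(RBN) and 170 in HA-RBN, at 2.48 (1.64 to 3.46), with a local background of 6.87 and 39.2. Its enrichment was 32.7 and 268 in the RBN pair, 228 and 169 in the siRNA pair and 565 and 284 in the 245-255 pair, so EV(RBN) was the low value among the 6. The summit was picked for its ratio in this pair. EV(RBN) was also lowest at many, though not all, other alternate summits present in all 6 libraries. chr6_GL000254v2_alt followed with 2 and 25 fragments, at 2.30 (0.30 to 5.43), then chr12_KI270833v1_alt with 4 and 42, at 2.05 (0.59 to 3.99), chr22_KI270928v1_alt with 8 and 74, at 1.87 (0.82 to 3.13), and chr6_GL000255v2_alt with 3 and 25, at 1.72 (0.01 to 4.09).

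In the 245-255 pair the lowest was a summit on chr2_KI270774v1_alt, with 198 fragments in EV(245-255) and 40 in HA-RB(245-255), at −2.24 (−2.77 to −1.75). The next 4, on chr6_GL000255v2_alt, chr5_KI270898v1_alt, chr9_KI270719v1_random and chr17_KI270862v1_alt, rested on 12 to 22 fragments in the control, and 2 of their intervals reached 0. Of the 5 highest, led by chr4_KI270925v1_alt with 5 and 15 fragments at 1.65 (0.12 to 3.46), 4 had intervals that included 0. In the siRNA pair 3 of the 5 lowest were the LRC summits described above, and the highest, on chr17_GL000258v2_alt with 4 and 10 fragments, had an interval from −0.74 to 3.18.

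Lists of a pair were also compared by overlap of at least 1 bp. Of control siRNA peaks off the chromosomes 87.1% (84.6 to 89.3) overlapped an RB1 siRNA peak, and of EV(245-255) peaks 91.3% (90.2 to 92.2) overlapped an HA-RB(245-255) peak, against 98.5% and 98.98% on the chromosomes, where the intervals left few gaps. Of EV(RBN) peaks 48.4% (46.9 to 49.9) overlapped an HA-RBN peak, against 32.6% (32.4 to 32.8) on the chromosomes. Unplaced sequences had 59.9% (55.7 to 64.0), random ones 56.8% (52.8 to 60.7) and alternates 44.5% (42.7 to 46.3). EV(RBN) peaks of each of these types were therefore overlapped more often than chromosome peaks. HA-RBN peaks covered 11.4% of the span of unplaced, 8.54% of random and 4.62% of alternate sequences, against 4.89% of the chromosomes. Larger cover makes an overlap of 1 bp more likely, and its part in these shares was not tested. Seen from the HA-RBN list, 83.0% (82.1 to 83.8) of alternate peaks had no EV(RBN) partner, against 79.4% (79.2 to 79.5) on the chromosomes, 55.7% on random and 47.0% on unplaced sequences.

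By number of peaks summed over the 6 libraries, the alternates were led by chr15_KI270905v1_alt (835), chr16_KI270853v1_alt (657), chr6_GL000251v2_alt (657), chr17_KI270857v1_alt (645) and chr6_GL000255v2_alt (613), which are among the long ones at 2645 to 5149 kb. chr15_KI270905v1_alt went from 111 peaks in EV(RBN) to 383 in HA-RBN and chr16_KI270853v1_alt from 102 to 347. Random sequences were led by chr16_KI270728v1_random (237), chr14_GL000225v1_random (224), chr22_KI270733v1_random (191), chr14_GL000194v1_random (110) and chr14_GL000009v2_random (92). Unplaced ones were led by chrUn_GL000220v1 (199), chrUn_KI270442v1 (149), chrUn_GL000216v2 (135), chrUn_GL000219v1 (100) and chrUn_GL000224v1 (99). Among these random sequences chr16_KI270728v1_random went from 46 to 102 peaks in the RBN pair, while chr14_GL000194v1_random had 36 in both libraries and chr14_GL000009v2_random 33 and 29.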

How the data were processed

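The deposited files are MACS2 peak lists, 1 per library. The submitters' processing notes name bcl2fastq 2.17, Trimmomatic 0.33, Bowtie 1.1.2, MACS2 2.1.0 and hg38; how reads that match several places were treated is not known from these sources. Each list gives the authors' fold enrichment (a ratio to local background) and deposited −log10 p and −log10 q per peak, and the summit position. Libraries named IgG exist for the siRNA and 245-255 pairs; no peak lists of their own were used. Sequencing depth is known only through the background below.

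Fold enrichment in MACS2 is pileup plus 1 over local background plus 1, and p is the Poisson tail at both, so each pair of values was solved for the fragments at the summit and the local background. The solver was tested on simulated data. It gave a value for all peaks, of which 99.6 to 100% had 1 solution only; otherwise the lowest was taken. The commonest local background was taken as library-wide background, lowest in EV(245-255) at 0.188 fragments per base and highest in HA-RBN at 0.634, and enrichment is fragments over it. In the IgG lists 1 fragment was scaled to 0.0166 to 0.0512, and 93.9 to 95.4% of summits lay below 1 scaled fragment, so levels across lists were compared by fragment numbers; fold enrichment entered across lists only in the rule for the 10 sequences and in 1 alternative threshold. Shares have exact Clopper-Pearson 95% intervals, ratios of 2 counts exact binomial ones, the growth of alternates a normal one on the log scale, and medians an order-statistic one. Named were the mitochondrial and ribosomal sequences, the 5 sequences of each type with most peaks, the 3 peaks of highest fold enrichment per library and type (a selection is printed), the 10 sequences highest in all lists, the alternates of chromosomes 6, 17 and 19, and the 5 most moved shared summits each way. Members and lists were chosen with earlier results of these data known. Gene positions came from RefSeq on GRCh38.p14, and no sequences were used. Computations ran in scipy 1.17.1, pandas 2.3.3 and numpy 2.4.6 under Python 3.11.15.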

Additional observations from a re-analysis of the deposited data

How the results depend on the processing

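No paired analysis was possible because each group has 1 library. In HA-RBN, as in every library, leaving out mitochondrial peaks moved the share off the chromosomes by less than its interval. With −log10 q of at least 5 that share became 2.29% and 6.02% in the siRNA pair (control first, as below), 10.3% and 6.96% in the 245-255 pair and 7.93% and 6.61% in the RBN pair, and with fold enrichment of at least 5 it became 5.26%, 5.26%, 13.1%, 11.3%, 5.36% and 6.06%. Control siRNA had 3 such members at that q value, so its share rests on few peaks. With lists cut to the length of the shortest it became 3.20% for RB1 siRNA, 3.79% in HA-RB(245-255), and 4.11% and 6.12% in the RBN pair. That cut moved the median width to 65813 bp for RB1 siRNA, 33432 and 36035 bp in the 245-255 pair and 735 and 971 bp in the RBN pair, and the median fold enrichment to 1.15, 1.42, 1.49, 4.12 and 4.90 in the same order. Leaving out alternates moved the width to 17445, 14709, 5247, 3925, 547 and 615 bp in the same library order, and the fold enrichment to 1.11, 1.26, 1.19, 2.75 and 2.88 from RB1 siRNA on.

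Overlap over at least 50% of the control peak gave 81.8%, 86.5% and 38.9% for the siRNA, 245-255 and RBN pairs. With both lists at −log10 q of at least 5 it gave 100%, 57.9% and 92.5%, out of 3, 19 and 254 control peaks. The siRNA and 245-255 values at that cut therefore rest on few peaks. Overlap on the chromosomes is not given at either setting. These values therefore do not show whether peaks off the chromosomes were still found again more or less often than chromosome peaks. Moved summits off the chromosomes numbered 2 of 186, 19 of 386 and 101 of 594 in these pairs. They numbered 1, 5 and 58 when at least 20 fragments were asked for, and 11 and 57 in the last 2 pairs when summits had to lie within 50 bp. Fewer summits remain to be counted under both settings. Their number is not given here, so these counts do not show whether the share rose or fell. Some alternatives were chosen after seeing the data. With at least 20 fragments the growth of alternates relative to chromosomes was 0.822 in the 245-255 pair and 2.44 in the RBN pair, and without the MHC haplotypes it was 1.56 in the RBN pair, each on the same side of 1 as before. Beyond these settings the cause was not tested. Depth limits single summits, as the median alternate summit held 3 fragments in the 245-255 and RBN pairs.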
